A study of Sus scrofa with 4 samples.

Results

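Growth factor signals pass between the somatic cells of the testis and its spermatogonia, and 9 genes of 3 such signals are described here in cultured pig cells with and without knockdown of the transcription factor ZBTB16. They are the ligands GDNF, FGF2 and KITLG, the receptors GFRA1, RET, FGFR1, FGFR3 and KIT, and the transcription factor ETV5, chosen by name from the 26921 genes and loci of the deposited tables. All 9 were found, and all 9 passed the filter on low counts. The cells are labelled as immature spermatogonia from pig testis: 2 control libraries carry the genotype label WT and 2 carry ZBTB16 knockdown. The series' design plans a short hairpin RNA delivered by lentivirus in primary cells, and no label says whether the controls received a vector, so vector and knockdown cannot be told apart. The labels of these libraries give neither age nor breed.

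In the mammalian testis GDNF is secreted by somatic cells and binds GFRA1, which brings the receptor tyrosine kinase RET into the complex on undifferentiated spermatogonia. FGF2 acts through FGF receptors such as FGFR1 and FGFR3, and both GDNF and FGF2 are known to raise ETV5, an ETS family factor needed for spermatogonial stem cell maintenance. KITLG, also called stem cell factor, is made by Sertoli cells and acts on KIT, whose appearance marks spermatogonia that have begun to differentiate.

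ZBTB16 itself was at 1.77 and 1.76 FPKM (fragments per transcript length, scaled to the mapped fragments of the library) in the control libraries and at 1.37 and 1.34 FPKM in the knockdown libraries. By counts it fell by 0.36 on the log2 scale (SE 0.109, adjusted p = 0.00338, edgeR), a call that was lost with DESeq2 (adjusted p = 0.113) and with limma on log2(FPKM + 1). The libraries held 15983390 to 18500447 expected counts, and the 9 genes together took 0.0385% to 0.0444% of them. The deposited lengths imply mean fragments of 325.7 and 326.7 bases in the controls and 266.4 and 267.3 bases in the knockdown. Genes of the mitochondrial genome took 4.15% and 4.29% of the counts in the controls and 5.71% in each knockdown library. Neither can be told apart from the knockdown in these libraries, and their part in the changes below was not tested. FPKM summed to 739808 and 742383 in the controls and to 634962 and 632881 in the knockdown, so TPM, which sums to the same total in each library, stands higher against FPKM in the knockdown. With limma on log2(TPM + 1) the ZBTB16 call was lost too (log2 -0.11, adjusted p = 0.338). Relative to the median of all genes on that scale ZBTB16 stood at -0.26. Its call held under 11 of 16 alternatives.

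The label of the cells was checked against marker genes. Of 7 germ cell markers in the tables, UCHL1 stood at 85.25 to 121.72 FPKM, while the other 6, among them DDX4 at 1.86 to 2.3 and DAZL at 2.06 to 3.36, reached at most 6.84 FPKM (DND1 in a control). Somatic markers ranged widely. ACTA2 of smooth muscle stood at 3198.13 to 3508.21 FPKM and CLDN11 of Sertoli cells at 571.18 to 720.84. FSHR, the receptor for follicle-stimulating hormone on Sertoli cells, was below UCHL1 in the controls, at 88.52 and 88.72, while AMH was at 7.20 to 11.99 and DHH at 1.89 to 3.88. Of the Leydig cell markers, CYP11A1 was at 144.22 to 161.73 FPKM, INSL3 was at 15.79 to 34.54, and STAR, LHCGR and CYP17A1 were under 1. Some somatic markers were thus abundant in libraries labelled as spermatogonia. In bulk RNA, fewer cells of a type and less RNA per cell cannot be told apart for any gene below. The mast cell marker CPA3 was listed at 0 in all 4 libraries, while MS4A2 was at 0.87 to 1.31 FPKM and HDC at 0.37 to 0.59 FPKM.

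**Figure D1:**
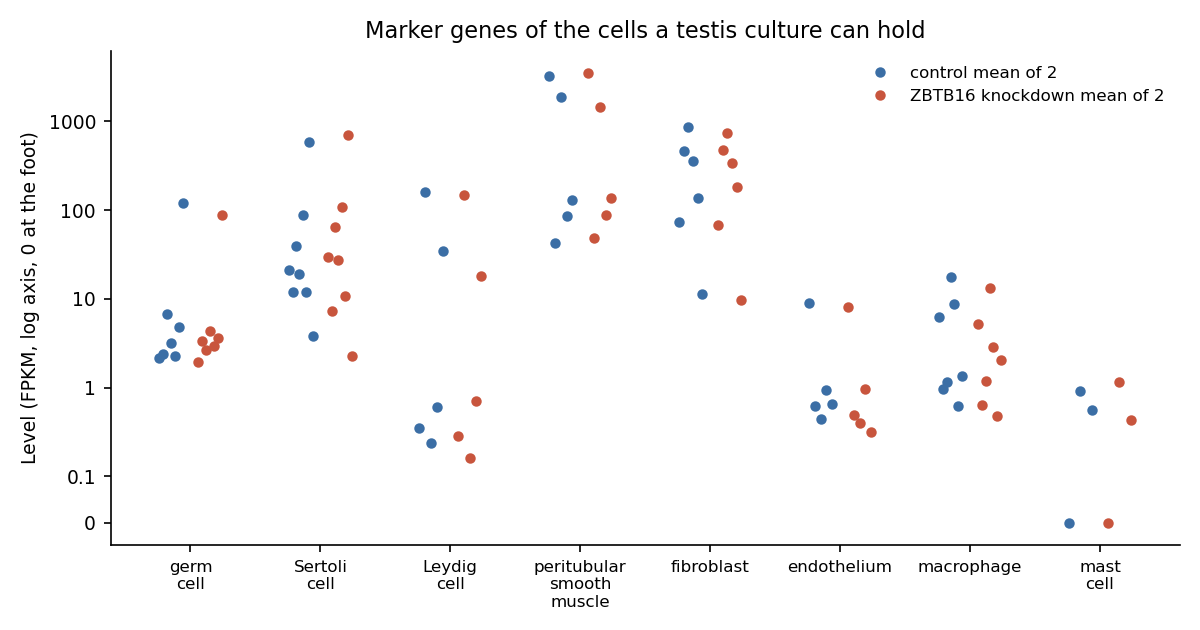
Level of each marker gene (points, mean of 2 libraries) by cell type on a log axis in FPKM, controls in blue and knockdown in red. The highest mean is that of ACTA2 in the knockdown, 3474 FPKM, and the highest of the germ cell markers other than UCHL1 is that of DND1 in the controls, 6.805 FPKM.

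The 9 genes changed little, and only upward where they passed the test. FGFR1, KIT, KITLG and FGF2 rose (by 0.33, 0.23, 0.18 and 0.18 on the log2 scale by counts), and GDNF, GFRA1, RET, ETV5 and FGFR3 did not pass. Against these 4 of 9, 22.7% of the 15763 genes tested were called higher, 23.8% lower and 46.4% in either direction, at a Benjamini-Hochberg adjusted p under 0.05. None of the 9 was called lower by edgeR or by DESeq2 (16.3% of all genes). Limma on log2(FPKM + 1), which left out GFRA1 and RET for their low FPKM, called none of the other 7 lower (29.7% of all genes), and 0 of the 9 were lower at an unadjusted p under 0.05 in the edgeR fit. The median log2 change over the 9 genes was 0.18, against 0.00 over all genes tested. With a smooth trend of transcript length removed from each library it was 0.06, against -0.01 for all genes. FGFR1 was called under all 16 alternatives, and the other 3 calls each depended on the choices given with them below. The share of all genes called higher was 23.1% with RLE or upper-quartile scaling, 15.6% with DESeq2, 14.3% with no low-count filter, 23.3% with a replicate block, 19.3% with an effective length offset and 19.3% with the length trend removed. With limma it was 15.6% on log2(FPKM + 1) or log2(FPKM + 0.1), 6.09% with no FPKM filter, 14.7% with no variance trend and 41.7% on log2(TPM + 1). It was 17.8% and 18.7% without control replicate 1 or 2, and 18.6% and 18.5% without knockdown replicate 1 or 2.

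**Figure D2:**
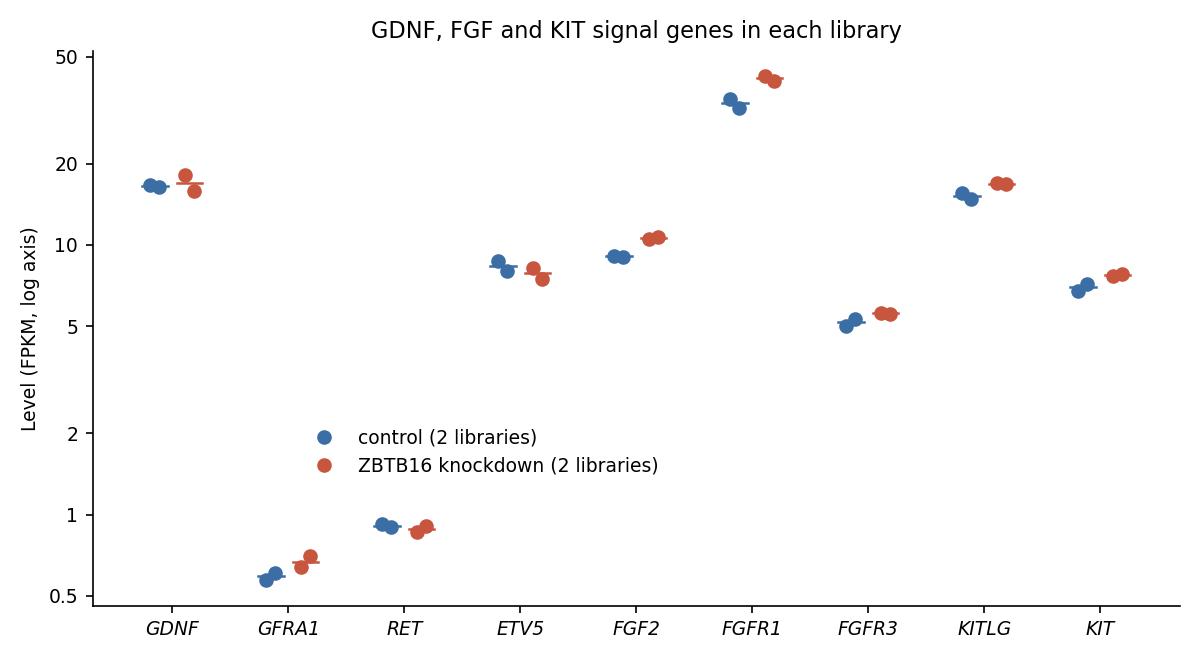
FPKM of the 9 genes in each library on a log axis (points, single libraries; bars, group means; controls blue, knockdown red). FGFR1 is highest, at 32.32 to 34.82 FPKM in the controls, and GFRA1 lowest at 0.57 and 0.61.

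The 250 bases before the annotated starts of FGF2, KITLG and KIT are shown because these genes moved in the same direction. They were read from the RefSeq annotation and genome of Sscrofa11.1, 5′ to 3′ on the strand of the gene. Capitals mark CCGGAA, the core bound by ETS factors such as ETV5, GGGCGG, the GC box bound by SP1-type factors, and TATAAA, on either strand; no marked match overlaps one of another motif.
FGF2, chr8:101344085-101344334, minus strand: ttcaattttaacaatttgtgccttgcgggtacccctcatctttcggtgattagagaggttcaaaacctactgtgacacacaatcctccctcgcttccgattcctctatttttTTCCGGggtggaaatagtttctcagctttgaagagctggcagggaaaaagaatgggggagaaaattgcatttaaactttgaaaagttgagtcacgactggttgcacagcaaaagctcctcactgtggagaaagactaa
KITLG, chr5:94016742-94016991, plus strand: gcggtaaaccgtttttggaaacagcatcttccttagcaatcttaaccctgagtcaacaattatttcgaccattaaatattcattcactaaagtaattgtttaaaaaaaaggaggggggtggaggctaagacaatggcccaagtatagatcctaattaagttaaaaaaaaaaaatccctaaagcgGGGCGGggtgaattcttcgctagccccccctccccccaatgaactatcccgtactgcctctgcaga
KIT, chr8:41402084-41402333, plus strand: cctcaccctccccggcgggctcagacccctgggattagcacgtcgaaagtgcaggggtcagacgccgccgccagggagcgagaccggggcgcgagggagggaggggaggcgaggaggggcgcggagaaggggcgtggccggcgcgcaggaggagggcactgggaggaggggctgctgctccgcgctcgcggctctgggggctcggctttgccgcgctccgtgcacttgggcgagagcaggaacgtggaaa

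None of the 3 motifs stood in more than 1 of these windows. The FGF2 window holds 1 ETS core and no GC box at a GC content of 43.2%. KITLG has 1 GC box at a GC content of 42.4%, and KIT has none of the 3 motifs at 73.6%. Among the 8 genes whose windows were searched 1 window held the ETS core, 5 held a GC box and 1 (ETV5) held TATAAA. Among 19556 windows of the same length before protein-coding genes these shares were 13.6%, 45.9% and 9.77%, at a median GC content of 57.6%. A match describes letters in the window, and the start used by these cells was not measured.

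Of the GDNF arm, the ligand was abundant and the receptors were scarce. GDNF (chromosome 16, 22936602 to 22965929, minus strand) was at 16.73 and 16.46 FPKM in the controls and at 18.24 and 15.85 FPKM in the knockdown. The knockdown libraries lay on either side of the controls. By counts its log2 change was 0.07 (SE 0.0525, 95% interval -0.03 to 0.17, adjusted p = 0.289, edgeR). Without knockdown replicate 1 the change was 0.00 and without knockdown replicate 2 it was 0.13, so the estimate moved with a single library. GDNF stood above 67.3% of the tested genes by its mean control FPKM.

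GFRA1, the co-receptor that binds GDNF and is anchored to the membrane by a lipid, was at 0.57 and 0.61 FPKM in the controls and at 0.64 and 0.70 FPKM in the knockdown, from 88, 87, 105 and 104 counts (chromosome 14, 126273558 to 126499957, minus strand). The groups did not overlap, but the difference did not pass (log2 0.20, SE 0.156, 95% interval -0.11 to 0.50, adjusted p = 0.311, edgeR). With the length trend removed it was 0.03; at a mean length of 9108 to 9310 bases GFRA1 has the longest transcripts of the 9 genes. The change called for FGFR1 (log2 0.33) lies inside the GFRA1 interval.

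RET, the receptor tyrosine kinase of the pathway, was at 0.92 and 0.90 FPKM in the controls and at 0.86 and 0.91 FPKM in the knockdown, from 74 to 83 counts (chromosome 14, 61305818 to 61361416, plus strand). The groups overlapped, and the log2 change was 0.00 (SE 0.171, 95% interval -0.34 to 0.33, adjusted p = 0.993, edgeR). RET and GFRA1 stood above only 18% and 13.3% of the tested genes by mean control FPKM. Per length, GDNF was 18.2, 18.3, 21.3 and 17.4 times RET in control 1, control 2, knockdown 1 and knockdown 2. RET itself was 1.61 and 1.46 times GFRA1 in the controls and 1.34 and 1.3 times in the knockdown, a ratio that is free of library scaling and whose groups did not overlap. The ratios were not tested, because with 2 libraries a group the smallest two-sided p of an exact permutation test is 0.333. How often the ratios of other gene pairs separate the groups was not worked out.

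ETV5, the target of GDNF and FGF2 signalling among the 9, was at 8.73 and 8.01 FPKM in the controls and at 8.20 and 7.50 FPKM in the knockdown (chromosome 13, 123873346 to 123930292, minus strand). The groups overlapped. Its log2 change by counts was -0.05 (SE 0.0678, 95% interval -0.18 to 0.09, adjusted p = 0.603, edgeR), and the sign turned without control replicate 1 (0.01), without knockdown replicate 2 (0.01) and on the TPM scale (0.12). On that scale the median of all genes was itself at 0.15, and ETV5 stood at -0.03 relative to it. The other PEA3 factors, the ETS group to which ETV5 belongs, moved apart: ETV4 fell from 23.8 ± 0.375 to 19.4 ± 1.01 FPKM (SD, n = 2; log2 -0.30, adjusted p = 1.39e-07, edgeR) and ETV1 rose from 24.1 ± 1.77 to 26.7 ± 0.233 FPKM (log2 0.16, adjusted p = 3.14e-04). The ETV4 call was lost on the TPM scale (log2 -0.07), and ETV1 is named here after its values were seen.

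The FGF arm held the largest change. FGFR1 (chromosome 15, 48053895 to 48106634, plus strand), the FGF receptor with the highest level here, was at 34.82 and 32.32 FPKM in the controls and at 42.34 and 40.64 FPKM in the knockdown, from 2010, 1740, 2636 and 2258 counts. Both knockdown libraries lay above both controls. FGFR1 rose by a log2 change of 0.33 (SE 0.0365, adjusted p = 1.13e-14, edgeR). Over the 16 alternatives its log2 change lay between 0.28 and 0.52 and its adjusted p between 4.92e-19 and 0.0311; with the length trend removed it was 0.30, so the rise was nearly as large without that trend. The table counts 12 transcripts for FGFR1, of which 11 are unannotated models.

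FGFR3, a receptor of the same family reported on spermatogonia, was at 4.99 and 5.33 FPKM in the controls and at 5.61 and 5.55 FPKM in the knockdown (chromosome 8, 879151 to 894968, plus strand). The groups did not overlap, but the change did not pass (log2 0.14, SE 0.0801, 95% interval -0.01 to 0.30, adjusted p = 0.133, edgeR). It passed only on the TPM scale (log2 0.30, adjusted p = 0.0121, limma on log2(TPM + 1)), or 0.15 relative to the median of all genes. Within a library FGFR1 was 6.97 and 6.06 times FGFR3 per length in the controls and 7.55 and 7.32 times in the knockdown.

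FGF2, the ligand of the FGF arm (chromosome 8, 101278877 to 101344084, minus strand), was at 9.09 and 9.06 FPKM in the controls and at 10.56 and 10.66 FPKM in the knockdown. The 2 libraries of a group differed by no more than 0.10 FPKM, and the groups did not overlap. It rose by a log2 change of 0.18 (SE 0.0521, adjusted p = 0.00216, edgeR). The call was lost with DESeq2 (adjusted p = 0.0868), once the length trend was removed (log2 0.06, adjusted p = 0.347), without control replicate 1 (log2 0.14, 0.0977) and without knockdown replicate 2 (log2 0.14, 0.0674). FGF2 shares 1014 exonic bases with NUDT6, a gene on the opposite strand known to be transcribed antisense to FGF2. NUDT6 was at 5.07, 3.68, 5.94 and 3.10 FPKM in control 1, control 2, knockdown 1 and knockdown 2 (adjusted p = 0.133, edgeR). No source used here states a stranded counting, and without strand the reads of FGF2 and NUDT6 within these shared bases cannot be told apart. The mean transcript length of FGF2 was 5432 to 6015 bases. FGF2 was 0.261 and 0.280 times FGFR1 per length in the controls and 0.249 and 0.262 times in the knockdown, with overlapping groups.

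In the KIT arm ligand and receptor both rose. KITLG (chromosome 5, 94016992 to 94110219, plus strand) was at 15.56 and 14.87 FPKM in the controls and at 16.96 and 16.76 FPKM in the knockdown. The groups did not overlap. It rose by a log2 change of 0.18 (SE 0.0422, adjusted p = 1.29e-04, edgeR) and was also called with DESeq2 (adjusted p = 0.021) and without any single library. The call was lost once the length trend was removed (log2 0.06, adjusted p = 0.241) and with limma on log2(FPKM + 1) (log2 0.14, adjusted p = 0.0512).

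KIT, the receptor of KITLG (chromosome 8, 41402334 to 41492306, plus strand), was at 6.75 and 7.18 FPKM in the controls and at 7.69 and 7.78 FPKM in the knockdown, from 503, 507, 640 and 590 counts. The lower knockdown library was 0.51 FPKM above the higher control. KIT rose by a log2 change of 0.23 (SE 0.0651, adjusted p = 0.00196, edgeR), and with the length trend removed by 0.15 (adjusted p = 0.0471). The call was lost with DESeq2 (adjusted p = 0.090), with limma on log2(FPKM + 1) (0.104) and without control replicate 1 (log2 0.16, 0.11). Per length, KITLG was 2.3 and 2.07 times KIT in the controls and 2.21 and 2.15 times in the knockdown. These ranges overlapped, so no shift between ligand and receptor was seen beyond the spread between libraries.

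Sertoli cells are the known source of KITLG in the testis. Of their markers SOX9, GATA4, WT1, FSHR and CLDN11 rose, 5 of 8, AMH and DHH fell, INHA did not pass, and their summed level was 768 to 781 FPKM in the controls and 943 to 969 FPKM in the knockdown. None of the 8 was at 0, and CLDN11 alone had means of 579.1 FPKM in the controls and 706.1 FPKM in the knockdown. Of 5 peritubular smooth muscle markers 4 rose and 1 (TAGLN) fell by counts. Their summed level was 5300 to 5390 FPKM in the controls and 5130 to 5230 FPKM in the knockdown. ACTA2 (control and knockdown means of 3204 and 3474 FPKM) and TAGLN (1882 and 1430 FPKM) made up most of it. By TPM the order turned, with sums of 7140 and 7280 in the controls and 8100 and 8240 in the knockdown. Among germ cell markers 3 rose (DAZL, TEX15 and PIWIL2), 2 fell (DND1 and UCHL1) and 2 did not pass of 7 tested. Their sum was 142 and 143 FPKM in the controls and 103 to 108 FPKM in the knockdown. UCHL1 alone had means of 121.1 FPKM in the controls and 87.15 FPKM in the knockdown, so the sum mostly follows this 1 gene. Of 4 tested Leydig cell markers only INSL3 was called, and it fell (log2 -0.72, adjusted p = 6.78e-09, edgeR). Fibroblast markers summed to about 1900 FPKM in each control and to 1810 and 1790 FPKM in the knockdown. Of 6 tested, LUM rose and PDGFRA, COL3A1 and DCN fell. Macrophage markers summed to 35 and 38.8 FPKM in the controls and to 24.3 and 27 FPKM in the knockdown, with 1 rise (PTPRC) and 3 falls (CD163, CD14 and AIF1) among 7 tested. The part of any of these in the results for the 9 genes was not tested.

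**Figure D3:**
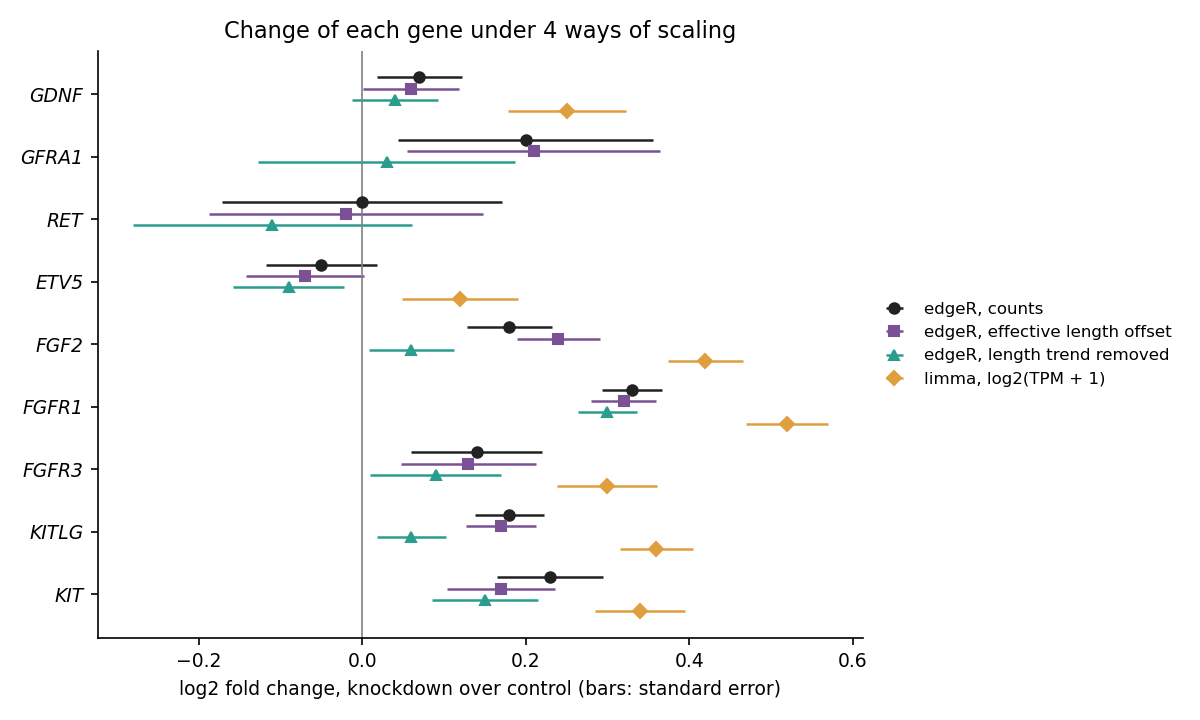
Log2 change of each gene, knockdown over control, with its standard error, under the fit to counts, the fit with effective length as an offset, the fit with the length trend removed, and limma on log2(TPM + 1), which left out GFRA1 and RET because their FPKM is under 1. FGFR1 stays between 0.30 and 0.52, FGF2 and KITLG drop to 0.06 with the length trend removed, and all TPM values sit to the right, where the median of all genes is at 0.15.

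The scale set the order of the groups for several of the 9. By FPKM both knockdown libraries lay above both controls for 6 of 9 genes, below for 0, and overlapped for 3; among all tested genes these shares were 29.0% above and 41.4% below. By TPM they lay above for all 9, and 54.0% of all tested genes did the same (20.3% below). Among the genes called, 48.8% were higher in the edgeR fit, 34.4% with limma on log2(FPKM + 1) and 74.2% with limma on log2(TPM + 1). GDNF was called higher only on the TPM scale (log2 0.25, adjusted p = 0.035), at 0.10 relative to the median of all genes.

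By mean control FPKM the order from high to low was FGFR1, GDNF, KITLG, FGF2, ETV5, KIT, FGFR3, RET and GFRA1. In the controls no neighbours in that order overlapped. In the knockdown GDNF (15.85 and 18.24 FPKM) overlapped KITLG (16.76 and 16.96 FPKM), and ETV5 (7.50 and 8.20 FPKM) overlapped KIT (7.69 and 7.78 FPKM). Thus GDNF stood well above its receptors RET and GFRA1, and FGFR1 stood above its ligand FGF2. KITLG was 2.07 to 2.3 times its receptor KIT per length.

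**Figure D4:**
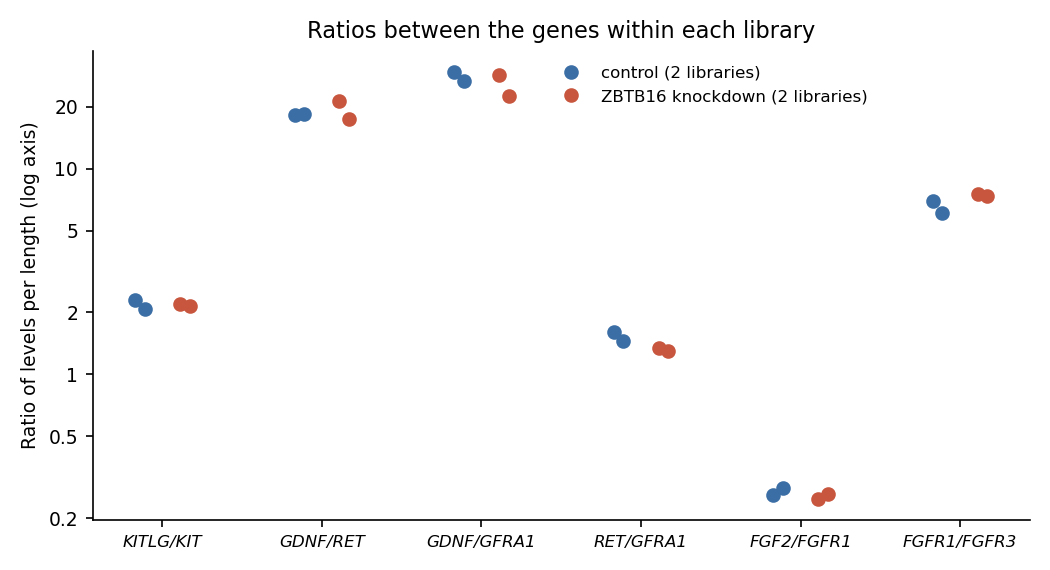
Ratios between pairs of the 9 genes within each library, per length, on a log axis (points, single libraries; controls blue, knockdown red). KITLG over KIT stays between 2.07 and 2.3, and GDNF over GFRA1 between 22.6 and 29.4, while FGFR1 over FGFR3 and RET over GFRA1 do not overlap between the groups. The other ratios shown overlap. How often the ratios of other gene pairs separate the groups was not worked out. No ratio was tested, as the smallest two-sided p of an exact permutation test with 2 libraries a group is 0.333. RET and GFRA1 rest on 74 to 105 counts a library.

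The mix of transcripts assigned to a gene can be read from its mean transcript length, which the deposited tables weight by abundance. For KIT it was 4635 and 4746 bases in the controls and 4766 and 4848 bases in the knockdown, and for FGFR1 3664 and 3694 against 3631 and 3624 bases. For FGF2 it was 5693 and 6015 against 5432 and 5688 bases, the groups only just apart. With the effective lengths as an offset, which also depend on the fragment length of each library, FGF2 rose by 0.24, KIT by 0.17 and FGFR1 by 0.32 on the log2 scale. All 4 calls held.

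The pathways around the 9 genes were described with 8 lists of 119 other genes, of which 117 were found in the tables and 100 passed the low-count filter. Of these 100, 37 rose, 18 fell and 45 did not pass, beside 22.7% of all genes tested called higher and 23.8% lower. The median log2 change of the 100 was 0.06 (0.04 with the length trend removed). Limma on log2(TPM + 1), which left out list genes of low FPKM, called 54 higher and 5 lower. On that scale 41.7% of all genes were called higher, and 74.2% of all called genes were higher. RET, FGF receptors and KIT share a relay inside the cell. Of its 32 adaptors and kinases 16 rose, 6 fell and 10 did not pass, with a median log2 change of 0.13. With the length trend removed 13 rose and 6 fell at a median of 0.05. SOS1, the exchange factor that activates RAS, rose from 14.7 ± 0.262 to 19.9 ± 0.488 FPKM (log2 0.47, adjusted p = 7.55e-27, edgeR). GAB1, a docking protein, rose from 17.7 ± 0.297 to 23.0 ± 0.163 FPKM (log2 0.39), PIK3R1, the regulatory subunit of PI3-kinase, by 0.33 and MAPK3, the kinase ERK1, by 0.27. These 4 calls held under all 16 alternatives. With the length trend removed SOS1 rose by 0.30, GAB1 by 0.31, PIK3R1 by 0.18 and MAPK3 by 0.42. Among the falls were HRAS (log2 -0.56), AKT1 (-0.18) and GRB2 (-0.15), the adaptor that carries SOS1, named here after their values were seen.

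FGF co-receptors and proteoglycans moved both ways. Among 12 in the test there were 7 rises and 2 falls, with 3 not called (median 0.17; 6, 1 and 0.10 with the length trend removed). HSPG2, the basement membrane proteoglycan perlecan that binds FGF2, rose from 35.6 ± 0.0919 to 47.3 ± 0.431 FPKM (log2 0.44, adjusted p = 2.24e-45, edgeR). GPC1, a glypican on the cell surface, rose from 128 ± 2.18 to 153 ± 2.06 FPKM (log2 0.29). With the length trend removed HSPG2 rose by 0.19 and GPC1 by 0.34. The syndecans SDC1 and SDC4 fell by 0.59 and 0.37 on the log2 scale, SDC1 from 17.4 ± 0.262 to 11.2 ± 0.601 FPKM; SDC4 was at -0.04 with the length trend removed (adjusted p = 0.542). Beside FGFR1 and FGFR3, FGFR2 was at 9.35, 9.11, 9.78 and 10.35 FPKM in control 1, control 2, knockdown 1 and knockdown 2 (adjusted p = 0.0822) and FGFR4 at 3.26, 2.89, 3.28 and 2.49 FPKM.

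Other ligands were mostly low. Of 13 other secreted FGFs 5 passed the filter. FGF7, which acts on FGFR2, rose (log2 0.24, adjusted p = 0.0184, edgeR) at 8.63 to 10.89 FPKM, and FGF1 fell (log2 -0.49, adjusted p = 0.0143) at 1.01 to 1.74 FPKM. Each of these calls was lost under 8 of 16 alternatives, DESeq2 among them. In the GDNF family NRTN, ARTN, GFRA4 and GFRAL were below the filter, with NRTN at most at 0.64 FPKM. Of the 4 tested, NCAM1, an alternative GDNF receptor, rose from 14.7 ± 0.12 to 18.1 ± 0.226 FPKM (log2 0.34, adjusted p = 1.35e-12, edgeR) under all 16 alternatives too. With the length trend removed NCAM1 rose by 0.22. None of the 4 fell by edgeR, by DESeq2 or at an unadjusted p under 0.05.

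Of 10 tested genes known to respond to GDNF or to mark GFRA1-positive spermatogonia in rodents, 1 was called higher and 1 lower. These shares lay below those over all genes, and 8 genes were not called (median -0.02). EGR4, an immediate early transcription factor, fell from 1.50 ± 0.219 to 0.87 ± 0.127 FPKM (log2 -0.73, adjusted p = 0.00655, edgeR), a call lost under 5 of 16 alternatives, among them without control replicate 1 (adjusted p = 0.139) and without knockdown replicate 1 (0.0972). SHISA6, named after its values were seen, was called higher at 0.08 to 0.30 FPKM (log2 0.91, adjusted p = 0.0241), although its groups overlapped, with 0.17 FPKM in control 1 and 0.16 FPKM in knockdown 2. DESeq2 gave SHISA6 no adjusted p, and it called 0 genes of this list in either direction. BCL6B, LHX1 and POU3F1, transcription factors below GDNF, were under 1 FPKM in every library, and NANOS2 was at 0.00 to 0.27 FPKM and below the filter.

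Inhibitors that ERK signalling induces were also split. Of 13 tested genes of feedback inhibitors and PEA3 factors 4 rose (SPRY2, SPRED1, SPRED2 and ETV1), 2 fell (DUSP4 and ETV4) and 7 did not pass. DUSP4, a phosphatase of ERK, fell from 48.2 ± 0.615 to 36.1 ± 0.686 FPKM (log2 -0.38, adjusted p = 2.57e-25, edgeR) and SPRED2, an inhibitor of RAF activation, rose by 0.36. DUSP6, another ERK phosphatase that FGF signals induce, was at 6.99, 7.01, 6.78 and 6.90 FPKM in control 1, control 2, knockdown 1 and knockdown 2 (log2 0.02, adjusted p = 0.891). SPRED1 rose by 0.21 but was at 0.08 with the length trend removed (adjusted p = 0.139).

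Of 10 tested partners of KIT 2 rose, 2 fell and 6 did not pass (median -0.04), shares near those over all genes. LYN, a SRC family kinase, rose by 0.26 (adjusted p = 1.07e-05) and PTPN6, the phosphatase SHP-1 that dampens KIT, fell by 0.48 on the log2 scale (adjusted p = 2.27e-04, edgeR), though not without control replicate 1 (adjusted p = 0.0694). SH2B3 and STAT5A had log2 changes of 0.16 and -0.11 and lost their calls under 9 and 8 of 16 alternatives; on the TPM scale STAT5A turned to 0.18. Of 14 other niche factors and receptors 5 rose, 4 fell and 5 did not pass (median 0.09). IL6ST, the shared receptor gp130, rose by 0.31, IGF1R by 0.29 and its ligand IGF1 by 0.68, and LIF fell by 0.31 on the log2 scale. The calls of IGF1 and LIF were lost with limma on log2(FPKM + 1). With the length trend removed IL6ST was at 0.16, IGF1R at 0.13, IGF1 at 0.63 and LIF at -0.35.

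**Figure D5:**
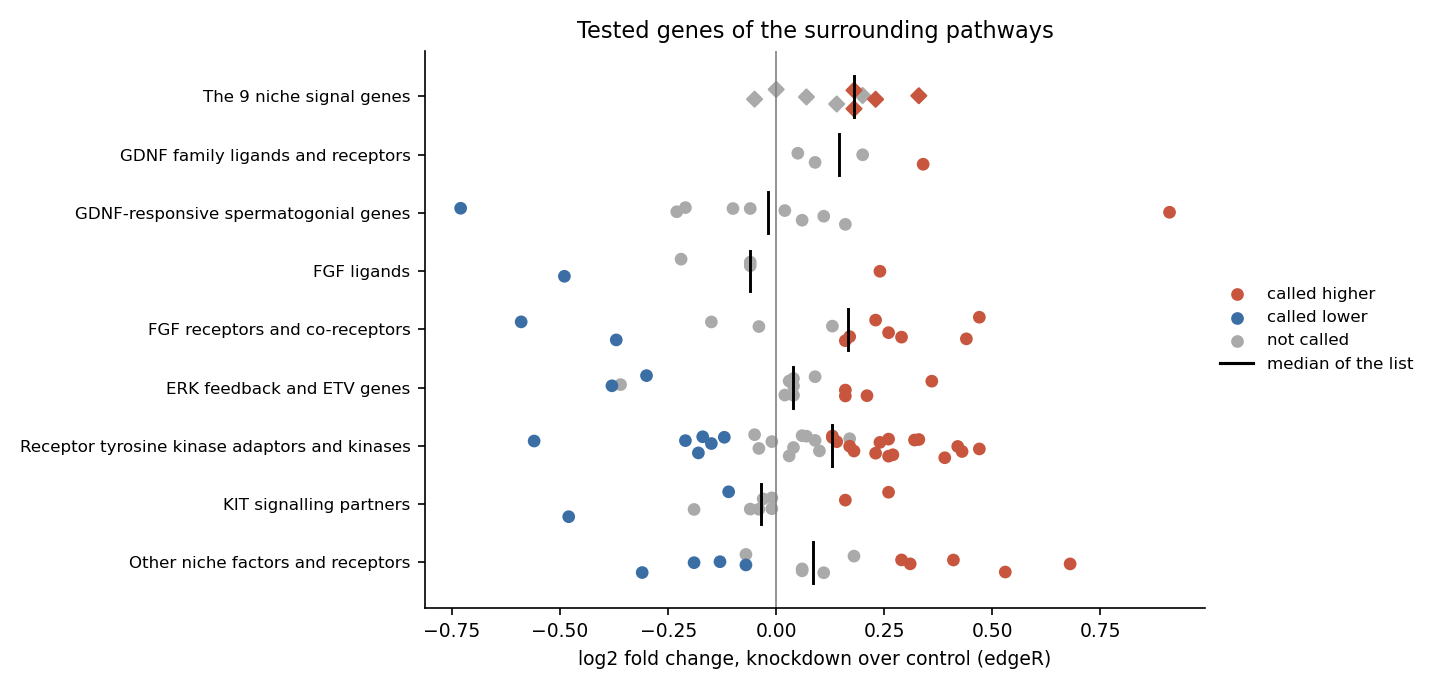
Log2 change, knockdown over control, of every tested gene of the 8 lists (circles) and of the 9 genes (diamonds); red, called higher; blue, called lower; grey, not called; black bar, median. The adaptors and kinases have 16 red and 6 blue points, and the 9 genes have 4 red and no blue.

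Among 11623 genes with a symbol and at least 1 FPKM, those most alike to each risen gene were found by the Euclidean distance between centred log2 CPM over the 4 libraries. They were NUP214 and CLPTM1 for FGFR1 (distances 0.00935 and 0.0101), REEP3 and CCDC125 for FGF2, RAB27A and UBR4 for KITLG, and ZNF260 and PREPL for KIT (distances 0.0125 and 0.0149). Over only 4 libraries a small distance mostly means a like change between the groups. The log2 changes of NUP214 and CLPTM1, for example, were 0.34 and 0.33. Shared regulation was not tested.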

How the data were processed

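RNA from 2 control and 2 ZBTB16 knockdown libraries was analysed as 1 comparison. Per the labels' protocols, the authors filtered reads with SOAPnuke 2.1.0, aligned them with HISAT2 2.2.1 to the pig genome build Sscrofa11.1, mapped them to transcripts with bowtie2 2.3.5 and counted with RSEM 1.3.3. The deposited tables give expected counts, which need not be whole, FPKM and TPM per gene, and lengths in bases. The labels describe the replicates as 2 independent experiments. The spread between libraries of a group in the edgeR fit was small (common biological coefficient of variation 0.0129). How far the replicates were independent was not tested, and the p-values rest on this spread.

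Expected counts were rounded and fitted with edgeR 4.0.16 in R 4.3.3 (TMM, filterByExpr with minimum count 10 and minimum total 15, two-sided quasi-likelihood test), adjusted by Benjamini-Hochberg over all 15763 genes tested. Fold changes are knockdown over control. Alternatives were DESeq2 1.42.0, other library scalings, other filters, limma 3.58.1 on log2(FPKM + 1) or log2(FPKM + 0.1) for genes at 1 FPKM in 2 libraries, a replicate block, effective length offsets, a length trend removed with mgcv 1.9.3, and each library left out. After the data were seen, limma on log2(TPM + 1) and limma without a variance trend were added. The limma fits keep a variance trend, which was settled after fits with and without it had been run. The scripts were tested on simulated data. The genes and lists were chosen with earlier results of these data known. Named genes were the 9, ZBTB16, and in each list up to 4 called genes with the smallest p and a mean of at least 1 FPKM in the higher group. For each called gene of the 9, the 2 genes nearest by log2 CPM (prior count 2) were also named. Any other list or marker gene named in the text was chosen after its values were seen. The promoter window of 1 of the 9 genes is not reported here.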

Additional observations from a re-analysis of the deposited data

How the results depend on the processing

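The number of the 9 genes called higher was 4 in the fit to counts and 2 with DESeq2, with limma on log2(FPKM + 1), on log2(FPKM + 0.1), without an FPKM filter or without a variance trend, and with the length trend removed. Without each library in turn it lay between 2 and 4, with 2 called without control replicate 1. On log2(TPM + 1) it was 6. The number called lower was 0 under each of the 16 alternatives, among 7 of the genes where limma left out GFRA1 and RET for low FPKM. Over all genes, 7319 were called, against 4441 with DESeq2 and 4438 with limma and no FPKM filter. With the replicate block 7480 genes and the same number of the 9, 4, were called; the labels give the numbers no shared source, and same-numbered libraries deviated together only weakly (r = 0.0395 across 11060 genes). ETV5, not called, changed sign on the TPM scale (0.12) and without a library (range -0.12 to 0.01), and STAT5A turned to 0.18 on the TPM scale. The median of all genes was -0.05 with limma on log2(FPKM + 1) and 0.15 on log2(TPM + 1). TPM rescales FPKM by its sum in each library, and these sums were lower in the knockdown. Why the sums differed was not tested. GFRA1 and RET had the fewest counts of the 9 genes (74 to 105 a library) and 95% intervals up to 0.50 and 0.33 on the log2 scale.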
